A study of Mus musculus with 12 samples.

Results

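RNA of the light polysome pool was compared between livers of mice on a ketogenic diet and livers of mice on chow, and the members described here are the 8653 genes that reached at least 10 counts in 2 or more of the 5 light libraries, out of 27179 gene IDs in the count tables. The keto group held 2 light libraries (keto 1 and keto 2), from wild-type male C57BL/6 mice that ate a ketogenic diet for 24 h. The chow group held 3 light libraries (chow 1, chow 2 and chow 3), from wild-type male C57BL/6 mice with free access to chow, of which the titles call chow 1 and 2 chow and chow 3 fed. The 24 h of the diet protocol were taken to hold for chow 1 and 2 as well, while chow 3 has no stated duration. All 5 animals were wild type, with no allele or agent besides the diet. The whole series held 12 libraries, a heavy and a light one per animal, among them those of an animal with a changed eIF4E, which enter no comparison below. The labels do not say which range of gradient fractions made up the light pool. They give 0 h as the time of every library, against the 24 h of the diet protocol.

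A sucrose gradient sorts mRNAs by how many ribosomes they carry, and light fractions hold free RNA, ribosomal subunits and mRNAs with few ribosomes. The amount of an mRNA in the light pool therefore depends on its total amount in the liver and on how it is spread over the gradient, and these are not separated by a comparison of light pools alone. A ketogenic diet is rich in fat and poor in carbohydrate. In the liver, a shortage of carbohydrate is known to lower insulin signalling and lipogenesis under SREBP-1c, and to raise fatty acid oxidation and ketone body synthesis under the nuclear receptor PPARα. The cap-binding factor eIF4E and the kinases MNK1 and MNK2, which phosphorylate it, are known regulators of mRNA recruitment to ribosomes.

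Markers of hepatocytes, the labelled tissue's main cells, were present throughout. All 8 hepatocyte markers were counted in every library, at 76.1 CPM or more, while the summed level of 11 neutrophil markers stayed at 0.268 to 2.01 CPM in the keto and 0.212 to 0.701 CPM in the chow libraries. CPM here is the usual scaling of counts to library size, after TMM scaling, which lines the libraries up on the bulk of their genes. Chow 3 stood apart from the other 4 libraries. Nuclear protein-coding genes took 6.61% and 4.09% of the counts in keto 1 and keto 2, against 6.53%, 8.16% and 39.3% in chow 1, chow 2 and chow 3. The mitochondrial rRNAs took 37.6% and 51.8% in the keto libraries, against 58.2%, 52.6% and 13.5% in the chow libraries. Totals were 9605716 and 8727270 counts in the keto libraries and ran from 4116889 to 10553620 in the chow libraries, and nuclear protein-coding genes received between 356666 (keto 2) and 1615933 counts (chow 3). Correlations of log2 CPM with chow 3, across genes, ran from 0.675 to 0.764, and those among the other 4 libraries from 0.740 to 0.874. Per the file headers, the keto files name no aligner, while chow 1 and 2 were aligned with Bowtie2 and chow 3 with HISAT2, so that the diet and the handling of the reads cannot be told apart. In the heavy libraries of the same animals, nuclear protein-coding genes took 5.60% and 6.01% of the counts in keto 1 and keto 2. In chow 1, chow 2 and chow 3 they took 15.9%, 22.2% and 29.7%. The mitochondrial rRNAs took 47.3% and 74.2% there in keto, against 16.7%, 12.9% and 13.8% in chow. Library composition thus went with the diet in the heavy pool, and its part in heavy values and pool differences was not tested. Medians without chow 3 are given for the lists described.

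No gene passed the test. Of the 8653 genes, 0 (0%) had an adjusted p under 0.05 in edgeR's quasi-likelihood test with Benjamini-Hochberg adjustment, and the lowest adjusted p was 0.743. DESeq2 also called 0 genes, with a lowest adjusted p of 0.102. At an unadjusted p under 0.05, 254 genes (2.94%) stood higher and 317 (3.66%) lower in the keto libraries. Both keto libraries lay above all 3 chow libraries for 1072 genes (12.4%) and below all 3 for 1272 genes (14.7%), and these shares are the background for the counts that follow. The median log2 change over all genes was -0.08. In what follows a log2 change is keto over chow as fitted by edgeR, its error is a standard error, and an adjusted p is edgeR's. Gene lists are described by their counts and medians beside those of all genes, and nothing particular to a list is called from them.

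**Figure D1:**
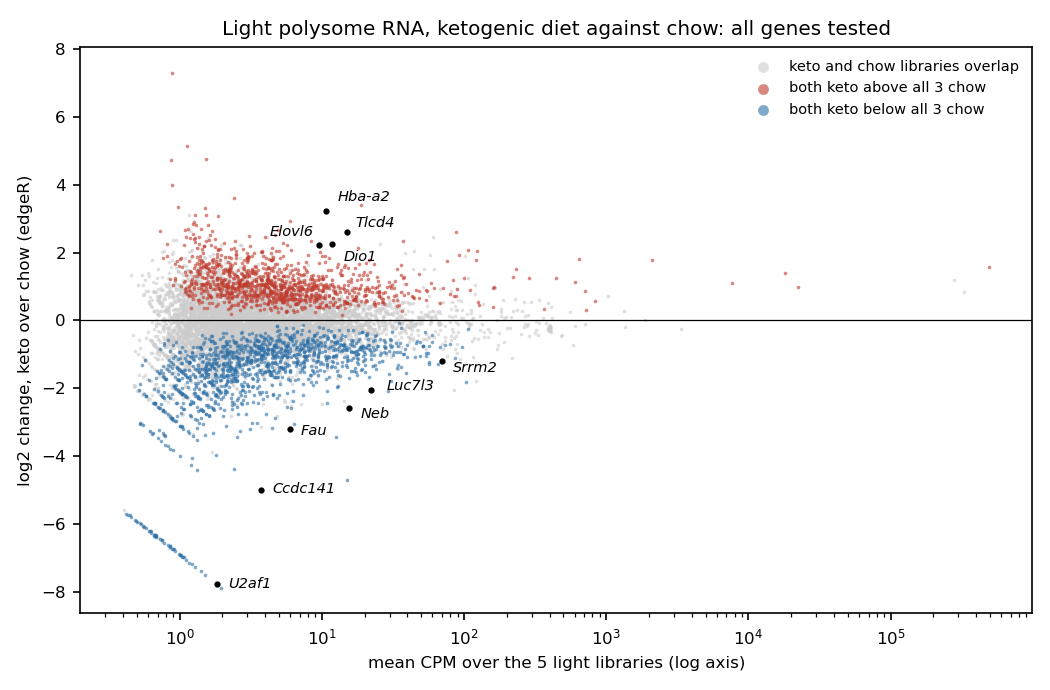
Each point is 1 of 8653 genes, with the mean CPM over the 5 light libraries on the x axis (log scale) and the log2 change of keto over chow on the y axis. Red points are the 1072 genes with both keto libraries above all 3 chow libraries and blue points the 1272 genes with both below. The slanted line of points at the lower left holds genes at 0 counts in both keto libraries, whose fitted change has no fixed size. Named genes are marked in black.

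Messenger RNAs of the splicing machinery stood lower in the light pool of keto livers. Of 44 splicing factor genes measured, 40 had a lower and 4 a higher fitted level in keto, with a median log2 change of -0.78 against -0.08 for all genes. Both keto libraries lay below all 3 chow libraries for 28 of the 44, or 63.6%, where 14.7% of all genes did, and above all 3 for 0. None passed the test. The median level of the list, as log2 against each gene's mean and the library's own median, was -0.45 and -0.46 in keto 1 and keto 2, against 0.05, 0.03 and 0.69 in chow 1, chow 2 and chow 3. Keto libraries were thus low to the same degree and chow 3 was the highest. Without chow 3 the median was -0.61, and 30 members lay below chow 1 and 2, where 20.7% of all genes did. In the heavy pool of the same animals the median was -0.58, with 15 members below, where 13.9% of these genes were.

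The SR proteins bind exonic enhancers and recruit the spliceosome. Srsf2 had 10.3 and 8.03 CPM in keto 1 and keto 2, against 20.4, 23.1 and 18.7 CPM in chow 1, chow 2 and chow 3, or 9.19 ± 1.63 (SD, n = 2) against 20.8 ± 2.23 (SD, n = 3), and its log2 change was -1.17 ± 0.44 (adjusted p = 0.743). The chow values lay close together and well above both keto values. Srrm2, a large scaffold protein of nuclear speckles, had 49.98 and 28.1 CPM in the keto libraries and 104, 74.0 and 93.1 CPM in the chow libraries. The groups did not overlap, and the log2 change was -1.21 ± 0.56 (adjusted p = 0.743). Srsf1, another SR protein, stood on the other side, with 9.48 and 21.96 CPM in keto against 10.2, 6.90 and 7.59 CPM in chow, and its groups overlapped.

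The U1 particle recognises the 5′ splice site. Snrnp70, its 70K protein, had 14.9 and 9.11 CPM in keto and 33.0, 22.7 and 35.7 CPM in chow, with a log2 change of -1.33 ± 0.48 (adjusted p = 0.743). Snrpa, its A protein, had 2 and 0 counts in keto against 20, 14 and 80 counts in chow, a 17.8-fold lower level in keto with an exact 95% interval of 4.82 to 149 that covers counting error only. Luc7l2, one of the U1-associated LUC7-like proteins, had 15.5 and 11.8 CPM in keto and 29.2, 27.3 and 65.7 CPM in chow. Every keto value of these 3 genes lay below every chow value, and chow 3 was the highest library for each. Outside the list, Prpf38b, a spliceosome component, had 14.4 and 10.2 CPM in keto against 49.6, 27.2 and 50.9 CPM in chow, with a log2 change of -1.79 ± 0.51 (adjusted p = 0.743).

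U2af1, the subunit of the U2 auxiliary factor that reads the 3′ splice site, was not counted in keto. It had 0 and 0 counts in keto 1 and keto 2, against 27, 20 and 60 counts in chow 1, chow 2 and chow 3. With a floor of 3 counts over the keto group, its level was at least 10.9-fold lower in keto. In the heavy pool U2af1 had 2.44 and 3.82 CPM in the keto libraries and 2.68, 2.36 and 7.41 CPM in the chow libraries, so that it was counted there in every library. The difference between its diet effects in the light and in the heavy pool did not pass (adjusted p = 0.473, edgeR interaction test). U2af1 lies at chr17:31647081-31659148 in the RefSeq table of GRCm38.p6, the assembly also called mm10, and near-identical copies of a gene could take or give reads, since no source used here says how reads that align to several places were counted. The median of the list was the same with U2af1 at its bound.

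**Figure D2:**
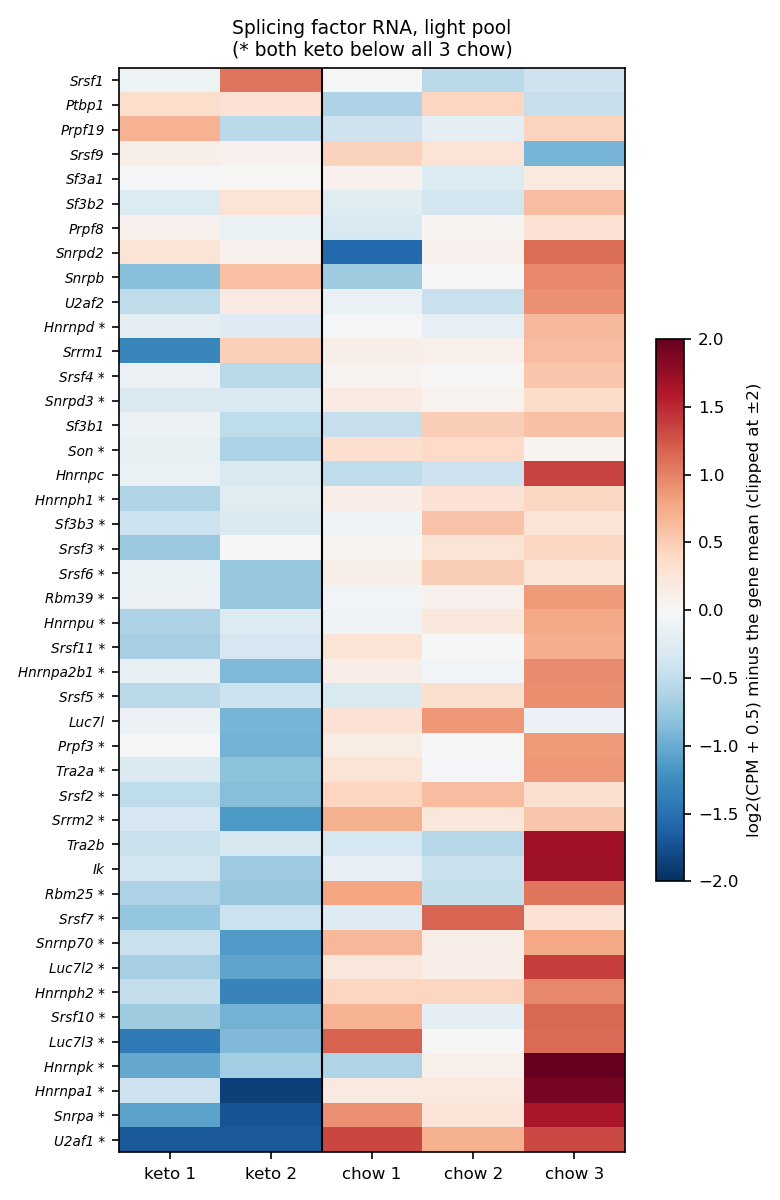
Rows are the 44 splicing factor genes measured, sorted by log2 change, and columns are the light libraries, keto on the left of the black line. Colour is log2(CPM + 0.5) minus the gene's mean over the 5 libraries, clipped at 2 in both directions, and an asterisk marks the 28 genes with both keto libraries below all 3 chow libraries. Most keto cells are blue and the chow 3 column is the reddest.

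Aminoacyl-tRNA synthetases, which load amino acids on tRNAs, lay lower as well. Of 18 measured, 15 had a lower and 3 a higher level in keto, the median log2 change was -0.72, and 9 lay below and 2 above all chow libraries. Without chow 3 the median was -0.48 and 9 lay below. Nars, for asparagine, had 5.74 and 3.48 CPM in keto and 7.85, 8.81 and 12.1 CPM in chow. Wars, for tryptophan, had 2.01 and 0 CPM in keto and 6.15, 4.14 and 2.92 CPM in chow. Gars, for glycine, was the reverse at 5.03 and 8.03 CPM in keto against 2.09, 3.72 and 3.50 CPM in chow. None of the 3 had overlapping groups, and the log2 changes were -1.04 ± 0.50, -1.95 ± 0.95 and 1.05 ± 0.55 (adjusted p of 0.743 to 0.746).

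The light pool gave no single direction for ribosomal protein mRNAs, the classical targets of the mTOR pathway through their 5′ terminal oligopyrimidine motif. Their median log2 change was -0.81 over 55 genes, but 0.05 without chow 3, so that its sign rested on 1 library. The list level was -0.34 and -0.15 in the keto libraries, against -0.47, 0.03 and 0.97 in the chow libraries. Chow 3 was thus high and chow 1 lay below both keto libraries. Rpl11 had 3 and 1 counts in keto and 22, 13 and 133 in chow, and Fau, which encodes a ubiquitin-like fusion with a small-subunit protein, had 11 and 1 counts in keto against 5, 21 and 427 in chow. Rpl7 had 0.862 and 0.268 CPM in keto and 1.83, 5.31 and 7.94 CPM in chow, with no overlap, and Rpl26 had 2.01 and 0.803 CPM in keto and 6.02, 2.23 and 11.7 CPM in chow. Among 22 translation factors with this motif, 16 had a lower level in keto, and their median of -0.59 became -0.06 without chow 3. Eef1g, a subunit of the elongation factor 1 complex, had 2.87 and 0.803 CPM in keto and 2.62, 7.43 and 5.55 CPM in chow.

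In the eIF4E and MNK pathway, 12 of 24 genes lay higher and 12 lower, with a median of -0.04 that was 0.10 without chow 3. Eif4g3, a scaffold that joins eIF4E to the small ribosomal subunit, had 7.47 and 4.55 CPM in keto and 22.8, 14.1 and 14.8 CPM in chow, and its log2 change was -1.50 ± 0.49 (adjusted p = 0.743). Its groups did not overlap. Mknk1, which encodes MNK1, had 3.30 and 7.77 CPM in keto and 21.2, 25.6 and 6.36 CPM in chow, and Mapk3, which encodes the upstream kinase ERK1, had 36.6 and 62.1 CPM in keto and 242, 250 and 20.6 CPM in chow. Chow 1 and chow 2 were high for both kinases, and chow 3 was as low as the keto libraries or lower. In the heavy pool keto 1 alone was high for both, at 61.9 CPM for Mknk1 and 769 CPM for Mapk3, against 4.59 and 38.2 CPM in keto 2 and at most 7.77 and 55.2 CPM in the chow libraries. Eif4e3, a cap-binding family member, had 15 and 14 counts in keto and 1, 0 and 18 in chow, or 2.15 and 3.75 CPM in keto and 0.131, 0 and 1.05 CPM in chow. It did not overlap in CPM, with a log2 change of 2.70 ± 1.21 (adjusted p = 0.743). Eif4e itself had 0.574 and 0.536 CPM in keto and 1.96, 0 and 1.23 CPM in chow, with overlapping groups, and Mknk2 had 23.8 and 8.57 CPM in keto and 2.62, 10.6 and 14.8 CPM in chow. Both are too thinly counted or too spread to set the diets apart.

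Hemoglobin mRNAs made up part of the genes that stood highest in keto. Hemoglobin is made in red cell precursors and is carried into the liver by blood. Shown are 3 of the hemoglobin genes and Srebf2, the regulator of the cholesterol genes described further on, with the bases before their transcription start, 5′ to 3′ on the strand of the gene, from RefSeq's promoter table of GRCm38.p6. In the hemoglobin windows, capitals mark GATAA, the core of the motif of GATA factors, searched on both strands (reverse TTATC). Hba-a1 lies on the plus strand at chr11:32283422-32283671, Hba-a2 on the plus strand at chr11:32296242-32296491 and Hbb-bs on the minus strand at chr7:103827929-103828178.
Hba-a1: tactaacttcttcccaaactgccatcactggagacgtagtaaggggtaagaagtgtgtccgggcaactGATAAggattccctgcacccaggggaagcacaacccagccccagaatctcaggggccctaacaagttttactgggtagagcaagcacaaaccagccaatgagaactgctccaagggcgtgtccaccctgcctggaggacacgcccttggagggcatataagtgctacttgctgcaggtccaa
Hba-a2: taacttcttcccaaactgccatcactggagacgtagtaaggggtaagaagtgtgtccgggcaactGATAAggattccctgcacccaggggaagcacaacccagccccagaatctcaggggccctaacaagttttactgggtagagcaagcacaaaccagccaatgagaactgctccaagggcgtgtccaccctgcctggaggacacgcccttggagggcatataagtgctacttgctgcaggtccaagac
Hbb-bs: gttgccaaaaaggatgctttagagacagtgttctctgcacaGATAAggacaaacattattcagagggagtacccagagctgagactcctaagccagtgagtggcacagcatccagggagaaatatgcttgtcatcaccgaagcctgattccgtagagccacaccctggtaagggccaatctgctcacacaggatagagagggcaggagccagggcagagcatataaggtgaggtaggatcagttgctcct
The windows of Hba-a1 and Hba-a2 share a run of 247 identical bases of the 250 printed. The motif occurred in 4 of the 6 measured erythroid genes with a window and in 23.0% of all 27025 windows of the same length. A match is a description of the letters only.

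Hba-a2 had 14.8 and 31.3 CPM in keto 1 and keto 2, against 1.44, 4.67 and 1.34 CPM in chow 1, chow 2 and chow 3. Hba-a1 had 6.75 and 18.2 CPM in keto and 1.31, 3.08 and 0.525 CPM in chow. The β-globin genes behaved alike, with 8.62 and 23.8 CPM for Hbb-b1 in keto against 3.01, 4.57 and 1.98 CPM in chow, and 3.73 and 16.1 CPM for Hbb-bs in keto against 1.44, 2.44 and 0.817 CPM in chow. For all 4 genes keto 2 was the highest library, chow 2 the highest of the chow libraries, and the groups did not overlap. The log2 changes were 3.21 ± 0.64, 2.94 ± 0.74, 2.34 ± 0.58 and 2.65 ± 0.72 (adjusted p = 0.743 for each). As the α-globin copies are near identical, the split of counts between Hba-a1 and Hba-a2, and likewise between the β-globin copies, is uncertain. Of 18 erythroid markers 7 were measured, and their summed level over all markers was 39.6 and 105 CPM in keto, against 13.3, 23.3 and 9.69 CPM in chow. Slc4a1, the anion exchanger of the red cell membrane, was at 0 in all 5 libraries. Alas2, the enzyme that starts heme synthesis in red cell precursors, had 2.30 and 5.36 CPM in keto and 3.14, 1.91 and 2.45 CPM in chow, and these overlapped. In the heavy pool 4 of the 7 measured were fitted higher and 3 lower, with 1 above and 1 below all chow libraries. The light minus heavy difference was above 0 for all 7, and 0 passed the interaction test. More red cells, more RNA per cell and another spread over the gradient cannot be told apart in the light pool of bulk tissue.

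The other genes that stood highest in keto had varied functions. Tlcd4, a membrane protein with a TLC domain, had 27.9 and 32.4 CPM in keto and 1.83, 8.81 and 4.20 CPM in chow (log2 change 2.60 ± 0.59). Elovl6, which lengthens saturated and monounsaturated fatty acids, had 25.995 and 10.2 CPM in keto and 2.22, 4.03 and 5.196 CPM in chow (2.23 ± 0.55). Both lay above every chow library. Dio1, the deiodinase that makes active thyroid hormone in liver, had 15.5 and 29.5 CPM in keto and 2.88, 7.22 and 3.91 CPM in chow, and Srd5a1, a steroid reductase, had 8.62 and 11.8 CPM in keto and 2.75, 0.956 and 2.57 CPM in chow. Perp, a desmosomal membrane protein under p53, had 12.2 and 10.2 CPM in keto and 2.35, 3.40 and 2.16 CPM in chow. The remaining genes named by the rule were Lin7a, a polarity scaffold, Bgn, the matrix proteoglycan biglycan, Mocs1, of molybdenum cofactor synthesis, and Igsf11, an adhesion protein, with log2 changes of 2.15 ± 0.52, 2.23 ± 0.56, 1.66 ± 0.43 and 2.53 ± 0.67. All 12 genes of this group were also fitted higher in the heavy pool of the same animals, where 4382 of all 8653 genes were. The groups overlapped there for Hba-a2, Hbb-b1, Dio1, Srd5a1 and Perp, and not for the others. Each of the 12 genes had an adjusted p of 0.743 in the light pool.

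**Figure D3:**
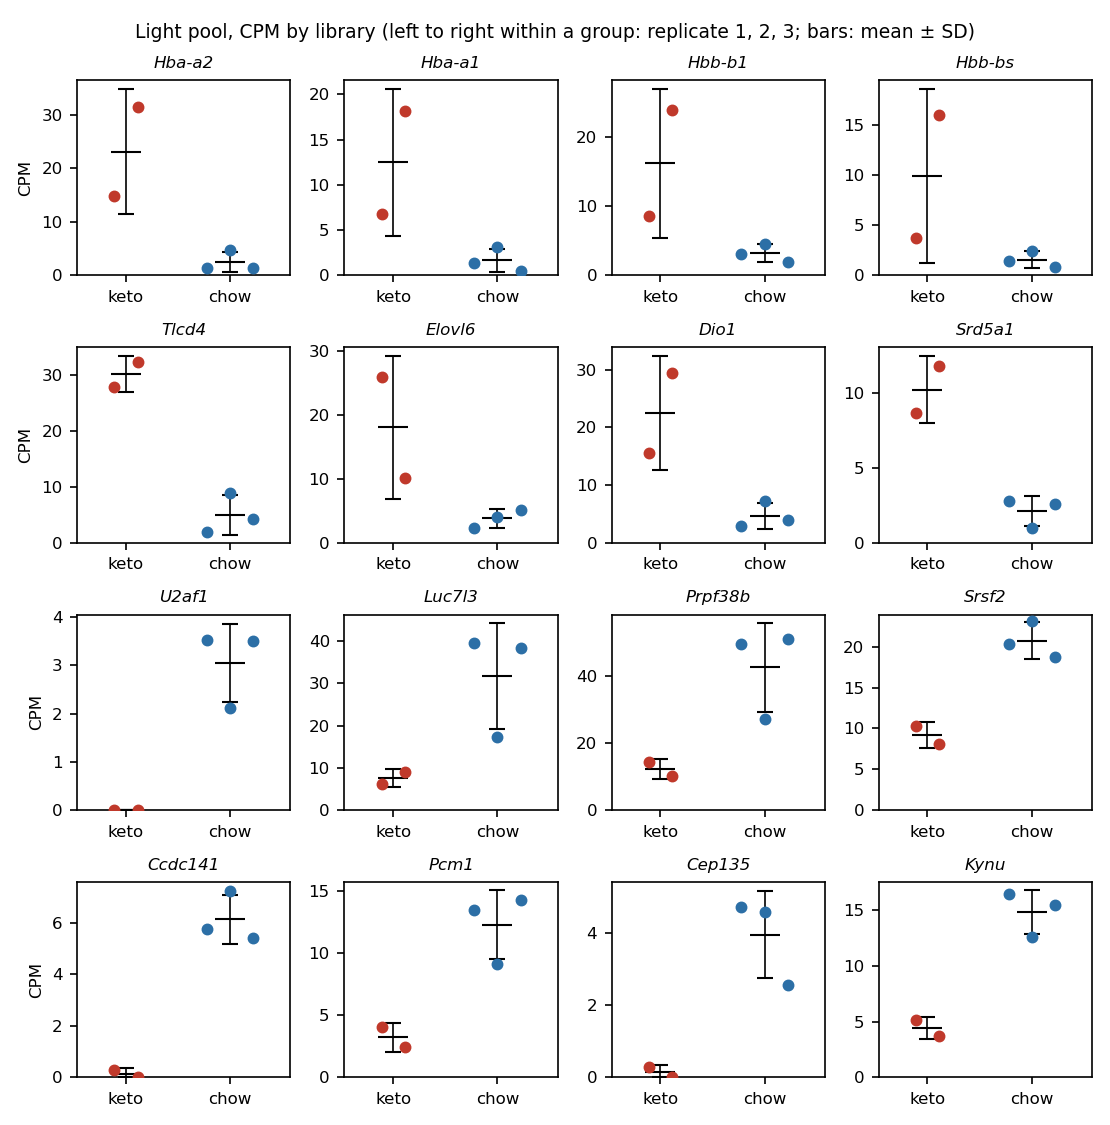
CPM in each light library for 8 genes that stood higher and 8 that stood lower in keto, with keto in red on the left and chow in blue on the right of each panel, replicates in order, and bars for mean ± SD (n = 2 keto, n = 3 chow). In every panel the keto points lie wholly above or wholly below the chow points. U2af1 is at 0 in both keto libraries.

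Among the genes that stood lowest in keto, several were nearly uncounted there. Ccdc141, a coiled-coil protein of muscle and migrating neurons, had 2 and 0 counts in keto and 44, 68 and 93 counts in chow. That is a 32.1-fold lower level in keto, with an exact 95% interval of 8.76 to 267 for counting error only. Cep135, a centriole assembly protein, had 2 and 0 counts in keto and 36, 43 and 44 in chow, a 19.2-fold lower level in keto with an interval of 5.21 to 161. Neither gene was near its chow level in a keto library. In the heavy pool Ccdc141 and Cep135 had log2 changes of -0.21 and 0.65. Pcm1, the scaffold of centriolar satellites, had 4.02 and 2.41 CPM in keto and 13.5, 9.13 and 14.2 CPM in chow, and Cspp1, a microtubule protein of spindle poles, had 1.01 and 2.68 CPM in keto and 13.3, 6.16 and 8.11 CPM in chow, with log2 changes of -1.90 ± 0.52 and -2.38 ± 0.66. Neb, the giant nebulin of skeletal muscle thin filaments, had 4.02 and 3.75 CPM in keto and 28.4, 7.96 and 33.5 CPM in chow. Neb and Ccdc141 were the 2 measured of 14 striated muscle markers, and the summed level of all 14 was 5.46 and 3.75 CPM in keto against 34.1, 15.6 and 39.8 CPM in chow. The defining markers Ckm, Mb, Myh4, Myh7, Myl1 and Tnnc2 were at 0 in all 5 libraries.

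Further genes stood low in keto with more counts behind them. Luc7l3, another LUC7-like protein, had 6.18 and 9.11 CPM in keto and 39.6, 17.3 and 38.4 CPM in chow (-2.07 ± 0.55). Kynu, the kynureninase of the tryptophan pathway, had 5.17 and 3.75 CPM in keto and 16.5, 12.6 and 15.5 CPM in chow (-1.72 ± 0.48). The chow values of Kynu lay within a narrow range, well above both keto values. Itpr2, the inositol trisphosphate receptor of hepatocytes, had 6.89 and 6.43 CPM in keto and 30.3, 18.4 and 15.9 CPM in chow. Fchsd2, an endocytosis protein, Rilp, a lysosomal Rab7 effector, Nedd4l, a ubiquitin ligase of ion channels, and Zfhx4, a homeodomain factor, had log2 changes of -2.07 ± 0.55, -2.19 ± 0.61, -1.82 ± 0.51 and -2.55 ± 0.71. None of these passed (adjusted p = 0.743 for each). Of the 12 lowest genes by the rule, 10 were also fitted lower in the heavy pool, where 4271 of all 8653 genes were. The exceptions were Pcm1 at 0.33 and Zfhx4 at 0.44. Only for Neb, Luc7l3 and Prpf38b did the groups not overlap in the heavy pool.

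Cholesterol synthesis genes lay mostly lower in keto, and the size rested on keto 2. These genes are switched on by SREBP-2 when the endoplasmic reticulum is short of cholesterol. Of 27 measured, 25 had a lower and 2 a higher level, the median log2 change was -0.68, and 7 lay below and 0 above all chow libraries. The list level was -0.04 and -0.77 in keto 1 and keto 2, against 0.80, -0.18 and 0.16 in chow 1, chow 2 and chow 3. Keto 2 was the lowest, chow 1 the highest, and keto 1 lay between chow 2 and chow 3. The median was -0.32 without keto 2, -1.25 without keto 1, and -0.40 without chow 1, where that of all genes was -0.08, -0.19 and -0.04.

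Srebf2, which encodes SREBP-2 and is known to be its own target, lies on the plus strand with its window at chr15:82147019-82147268, in which capitals mark TCACCCCA, the core of the sterol regulatory element, searched on both strands (reverse TGGGGTGA).
Srebf2: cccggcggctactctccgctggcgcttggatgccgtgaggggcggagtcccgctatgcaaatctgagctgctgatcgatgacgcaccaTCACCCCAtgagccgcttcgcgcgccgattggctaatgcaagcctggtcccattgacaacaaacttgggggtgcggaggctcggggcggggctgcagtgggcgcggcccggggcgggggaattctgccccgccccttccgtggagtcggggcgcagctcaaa
The exact core occurred in 2 of 19 list members with a window, Srebf2 and Hmgcs1, and in 1.26% of all windows, and no match says only that these letters are not in a window. Srebf2 had 6.32 and 0.803 CPM in keto 1 and keto 2, against 13.99, 10.6 and 9.87 CPM in chow 1, chow 2 and chow 3. Fdft1, which makes squalene, had 4.596 and 2.68 CPM in keto and 9.68, 7.11 and 9.11 CPM in chow. Both had keto 2 lowest and no overlap, with log2 changes of -1.61 ± 0.69 and -1.22 ± 0.52 (adjusted p = 0.743). Sqle, squalene epoxidase, had 3.88 and 0 CPM in keto and 9.42, 3.72 and 2.86 CPM in chow, and Fdps, which makes farnesyl diphosphate, had 2.87 and 0 CPM in keto and 10.99, 1.70 and 14.7 CPM in chow. The groups overlapped for both.

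The lipogenic genes split in 2 directions. Of 19 measured, 12 lay lower and 7 higher, with a median of -0.55. It was -0.93 without keto 1, -0.04 without keto 2, -0.47 without chow 3 and -0.03 over the 17 genes with a mean of at least 50 counts, so that its size rested on keto 2 and on the count minimum. On the lower side, Acly, which makes cytosolic acetyl-CoA from citrate, had 11.9 and 6.43 CPM in keto and 52.8, 14.7 and 21.9 CPM in chow, Mlxipl, the glucose-sensing factor ChREBP, had 23.0 and 10.7 CPM in keto and 63.0, 33.4 and 38.3 CPM in chow, and Thrsp, a lipogenic nuclear protein, had 2.59 and 0 CPM in keto and 10.1, 4.67 and 6.77 CPM in chow. Their groups did not overlap, and the log2 changes were -1.68 ± 0.63, -1.40 ± 0.54 and -2.30 ± 0.92 (adjusted p = 0.743). Fasn, fatty acid synthase, had 26.3 and 17.1 CPM in keto and 66.3, 26.7 and 32.8 CPM in chow, where keto 1 and chow 2 nearly met. On the higher side, the elongases stood out, with Elovl6 given above and Elovl5, which acts on polyunsaturated fatty acids, at 68.1 and 84.6 CPM in keto and 20.5, 27.3 and 40.6 CPM in chow (1.37 ± 0.49, adjusted p = 0.743).

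Chow 1 differed from the other 4 libraries in genes of feeding and fasting. Srebf1, the SREBP-1 gene, had 5.60 and 4.82 CPM in keto and 34.9, 4.67 and 4.44 CPM in chow. For Cyp4a14, a PPARα-induced fatty acid ω-hydroxylase, the keto libraries had 216 and 210 CPM and the chow libraries 4.71, 323 and 508 CPM. Chow 1 was thus the highest library for Srebf1 and by far the lowest for Cyp4a14, while chow 2 and chow 3 lay near the keto libraries or beyond them. The heavy library of chow 1 showed the same order, with 24.3 CPM of Cyp4a14 against 240 and 241 CPM in keto and 1391 and 692 CPM in chow 2 and chow 3, and with 56.9 CPM of Srebf1 against at most 10.1 CPM in the other 4.

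Ketogenesis and fatty acid oxidation genes did not set the diets apart, and chow 1 was low for most of them. Cpt1a, which brings fatty acids into mitochondria, had 133.7 and 105 CPM in keto and 18.3, 92.2 and 130 CPM in chow, and Angptl4, a secreted lipase inhibitor under PPARα, had 25.995 and 36.4 CPM in keto and 2.75, 32.0 and 40.9 CPM in chow. For both genes chow 1 was the lowest library, and chow 2 and chow 3 lay near the keto libraries. The level of the 9 ketogenesis genes was 0.32 and 0.29 in keto and -1.58, 0.24 and 0.65 in chow, that of 17 mitochondrial β-oxidation genes 0.11 and -0.07 in keto and -1.45, 0.31 and 0.93 in chow, and that of 19 peroxisomal and ω-oxidation genes 0.49 and 0.18 in keto and -1.74, 0.33 and 0.63 in chow. Their median log2 changes were 0.20, -0.41 and -0.12, against 0.62, 0.20 and 0.45 without chow 3 and -0.23, -0.74 and -0.38 without chow 1, so that the direction rested on single chow libraries. Hadhb, a subunit of the trifunctional protein, had 1.58 and 1.61 CPM in keto and 1.57, 3.29 and 19.2 CPM in chow, where chow 3 alone was high. Of the 9 genes listed for ketogenesis, 1 lay above and 1 below all chow libraries (11.1% each), where 12.4% and 14.7% of all genes did. Slc16a1, the monocarboxylate transporter that exports ketone bodies, had 4.88 and 8.03 CPM in keto against 3.66, 4.78 and 3.62 CPM in chow. Acss2, cytosolic acetyl-CoA synthetase, was in the list too and had 2.44 and 6.16 CPM in keto against 10.7, 8.60 and 9.63 CPM in chow. Pdk4, which restrains glucose oxidation, had at most 18 counts in a library. Cyp4a31 and Vnn1, a pantetheinase, are PPARα targets whose groups did not overlap. Cyp4a31 had 19.4 and 23.3 CPM in keto and 0.392, 15.8 and 9.11 CPM in chow, and Vnn1 had 14.4 and 16.1 CPM in keto and 0.785, 9.98 and 10.98 CPM in chow. For both, chow 1 was far below the other libraries. Cyp4a12b, another ω-hydroxylase, had 9.05 and 6.70 CPM in keto and 2.88, 5.52 and 2.74 CPM in chow (1.09 ± 0.54). The remaining metabolic genes, Ppara, Pck1, G6pc and Scd1, had log2 changes of 0.30 ± 0.57, -0.11 ± 0.86, -0.06 ± 0.52 and 0.02 ± 0.83, with overlapping groups.

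**Figure D4:**
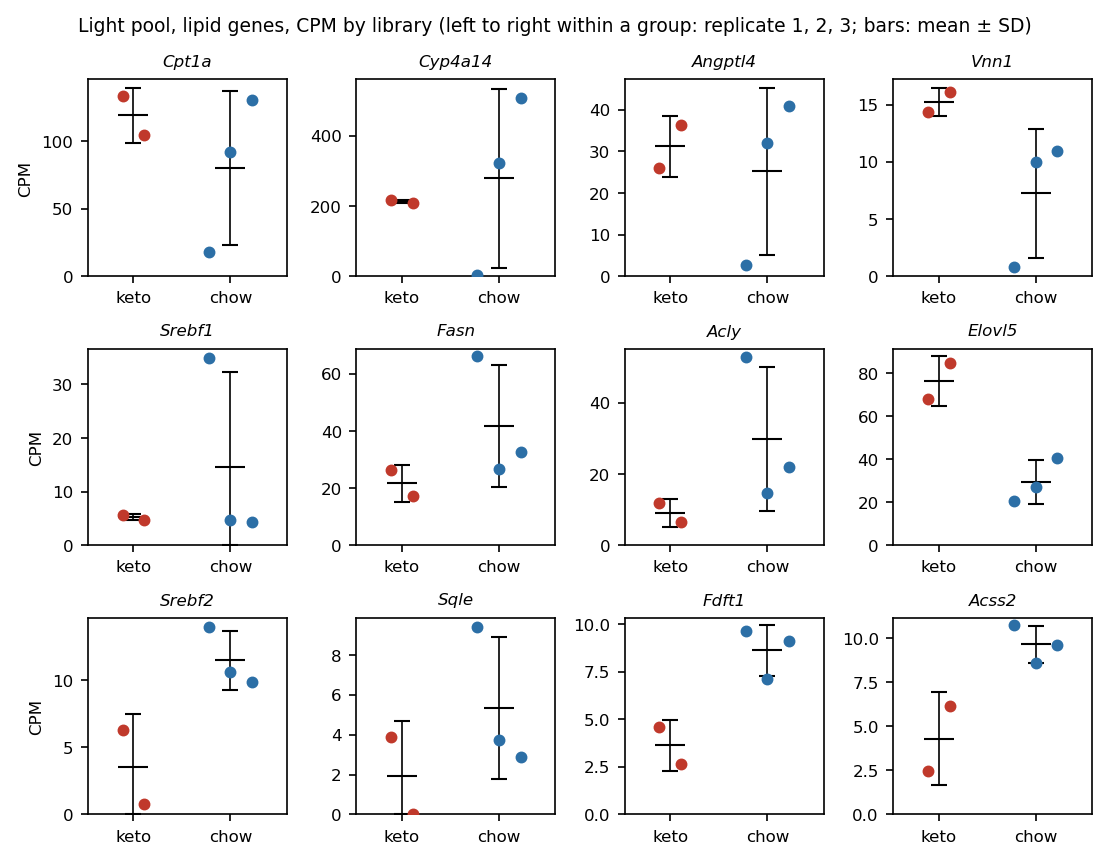
CPM in each light library for 12 genes of lipid metabolism and its regulation, keto in red on the left and chow in blue on the right of each panel, replicates in order, and bars for mean ± SD (n = 2 keto, n = 3 chow). Chow 1, the first blue point, is the lowest library for Cpt1a, Cyp4a14, Angptl4 and Vnn1 and the highest for Srebf1, Fasn and Acly. Both keto points of Elovl5 lie above, and both of Srebf2 below, all chow points.

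Amino acid and nitrogen genes leaned low in keto, and for amino acid catabolism the lean rested on keto 1. Of 36 amino acid catabolism genes, 31 had a lower level, the median log2 change was -0.39, and 8 lay below and 0 above all chow libraries. All 17 periportal hepatocyte markers had a lower level, with a median of -0.51 and 4 below all chow libraries. The level of the periportal list was -0.37 and -0.04 in keto 1 and keto 2. In chow 1, chow 2 and chow 3 it was -0.22, 0.11 and 0.61, so that keto 2 lay above chow 1. The 14 pericentral markers had a median of 0.05, with 8 higher and 6 lower. The level of the amino acid list was -0.51 and 0.08 in keto 1 and keto 2, against -0.35, 0.22 and 0.35 in chow 1, chow 2 and chow 3, so that keto 2 lay above chow 1. Its median was -0.18 without keto 1 and -0.65 without keto 2, where that of all genes was -0.19 and -0.08. Without chow 3 the medians of the 3 lists were -0.26, -0.49 and 0.05, and 11 periportal markers had a lower and 6 a higher level. Ass1, of the urea cycle, had 40.9 and 42.0 CPM in keto and 68.3, 77.4 and 289 CPM in chow. The groups did not overlap, and chow 3 was the highest library, the log2 change being -1.80 ± 0.78 and -0.80 without chow 3. Prodh, which starts proline breakdown, had 10.9 and 12.6 CPM in keto and 16.6, 28.6 and 20.1 CPM in chow, and Uroc1, of histidine breakdown, had 26.9 and 25.4 CPM in keto and 53.0, 46.5 and 40.3 CPM in chow. For these the chow libraries lay closer together, chow 3 among them, and the log2 changes were -0.89 ± 0.46 and -0.83 ± 0.45 (adjusted p of 0.746 and 0.753). Otc, another urea cycle enzyme, had 10.3 and 8.84 CPM in keto and 10.3, 13.1 and 28.3 CPM in chow.

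Secreted proteins showed no lean in the light pool. Of 46 plasma protein genes 22 lay higher and 24 lower, with a median of -0.06 that was 0.10 without chow 3. For the heavy pool the median was -0.95 and 28 lay below all chow libraries, where 13.9% of these genes were, a gap between the pools that was not tested for the list. Alb had 1161 and 1358 CPM in keto and 1075, 2316 and 891 CPM in chow. Igf1, the growth factor that the liver secretes under growth hormone, had 60.0 and 72.8 CPM in keto and 35.1, 29.4 and 45.1 CPM in chow, without overlap (0.86 ± 0.46, adjusted p = 0.753). Hamp, the iron hormone hepcidin, had 37.6 and 20.6 CPM in keto and 30.5, 33.8 and 300 CPM in chow, so that its log2 change of -2.06 became -0.13 without chow 3.

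Enzymes of bile acid synthesis and drug metabolism had medians of -0.13 over 19 and -0.33 over 34 genes, which were -0.03 and -0.07 without chow 3. Hsd3b7, which modifies the sterol ring in bile acid synthesis, had 19.8 and 19.3 CPM in keto and 54.5, 32.9 and 32.6 CPM in chow (-1.03 ± 0.48). Gsta3, a glutathione transferase, had 29.7 and 31.6 CPM in keto and 65.5, 60.2 and 98.1 CPM in chow (-1.28 ± 0.52), and Sult1a1, a phenol sulfotransferase, had 11.2 and 7.50 CPM in keto and 13.3, 28.9 and 39.5 CPM in chow (-1.53 ± 0.56). Ugt2b34, a glucuronosyltransferase, stood on the other side at 31.0 and 32.7 CPM in keto against 14.9, 20.2 and 13.7 CPM in chow (0.97 ± 0.43). None of the 4 had overlapping groups, and their adjusted p was 0.743 each. Ghr, the growth hormone receptor, had 30.0 and 39.4 CPM in keto and 21.7, 20.3 and 11.1 CPM in chow (0.97 ± 0.47), also without overlap. Together with Dio1 and Igf1 it was among the 4 of 14 thyroid and growth hormone genes above all chow libraries, where 3 lay below.

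All 13 mitochondrially encoded mRNAs had a higher fitted level in keto. The median log2 change was 1.2005, and 8 of 13 lay above all chow libraries. ND1, a complex I subunit, had 199 and 133 CPM in keto and 38.5, 81.0 and 12.4 CPM in chow, ND4 had 244 and 209.4 CPM in keto and 49.7, 104 and 11.6 CPM in chow, and ND6 had 133 and 130 CPM in keto and 32.8, 71.1 and 13.7 CPM in chow. Chow 3 was the lowest and chow 2 the highest of the chow libraries for these 3. ATP6, an ATP synthase subunit, had 1392 and 575 counts in keto and 284, 479 and 1 counts in chow, and COX2 had 338 and 155 counts in keto and 182, 645 and 3 in chow, so that some mitochondrial mRNAs were nearly absent from chow 3. COX1 had 833 and 974 CPM in keto and 436, 711 and 84.4 CPM in chow. Without chow 3 the median was 0.71, and 8 members still lay above chow 1 and 2, where 17.6% of all genes did. The exceptions to a higher level were then COX2, ATP8 and ND3, another complex I subunit, at -0.03, -0.33 and -0.47, and without keto 1 ND3 was at -1.70. In the heavy pool the median was 1.56 and 11 members lay above all chow libraries, where 16.2% of these genes did. Rn7sk, the 7SK RNA, a nuclear brake on RNA polymerase II elongation, had 714 and 1547 CPM in keto and 472, 462 and 42.9 CPM in chow.

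The diet effect differed between the pools for 2 genes (0.0231% of 8653), tested within animals over the 10 light and heavy libraries. These were Mup9, a major urinary protein, and Gm13498, a transcribed pseudogene. Mup9 had 20.5 and 72.3 CPM in the keto light libraries and 16.5, 43.6 and 4.26 CPM in the chow light libraries, against 12.8 and 13.4 CPM in the keto heavy and 78.6, 161 and 7.48 CPM in the chow heavy libraries. The light minus heavy difference of log2 changes was 3.24 (adjusted p = 0.0493, edgeR). Gm13498 had 21.3 and 14.2 CPM in the keto light and 3.66, 10.8 and 0.0584 CPM in the chow light libraries, against 16.6 and 4.97 CPM in the keto heavy and 36.5, 72.0 and 0.489 CPM in the chow heavy libraries, a difference of 3.89 (adjusted p = 0.0108, edgeR). In both cases chow 3 was low in both pools, and chow 1 and chow 2 were higher in the heavy than in the light pool. Neither call remained at a mean of at least 50 counts, without the animal block, without chow 1 or without chow 2, where 0 genes were called. Neither remained without keto 2, where the 2 genes called had a difference below 0, and that of Mup9 was lost without keto 1 (adjusted p = 0.0514, edgeR).

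Major urinary proteins, secreted pheromone carriers from a large cluster of near-identical genes whose counts cannot be assigned with certainty, were then looked at as a family. Of 20 measured, 17 had a higher level in keto in the light pool, with a median of 1.37, and all 20 a lower fitted level in the heavy pool, with a median of -1.84. The heavy level was -0.78 and -0.49 in keto 1 and keto 2, against 1.36, 2.29 and -2.41 in chow 1, chow 2 and chow 3. Chow 3 was thus the lowest heavy library, and 2 members lay below all chow libraries there. The light level was 0.05 and 1.88 in keto 1 and keto 2, against -0.98, 0.59 and -1.997 in chow 1, chow 2 and chow 3. Keto 2 was the highest and keto 1 lay below chow 2, and without keto 2 the median was 0.28. Mup15 had 33.6 and 204 CPM in keto and 12.4, 39.8 and 11.9 CPM in chow, and Mup7 had 86.2 and 492 CPM in keto and 100, 257 and 202 CPM in chow. Mup2, at 31.7 and 111 CPM in keto and 8.89, 29.7 and 4.09 CPM in chow, was the 1 member without overlap.

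**Figure D5:**
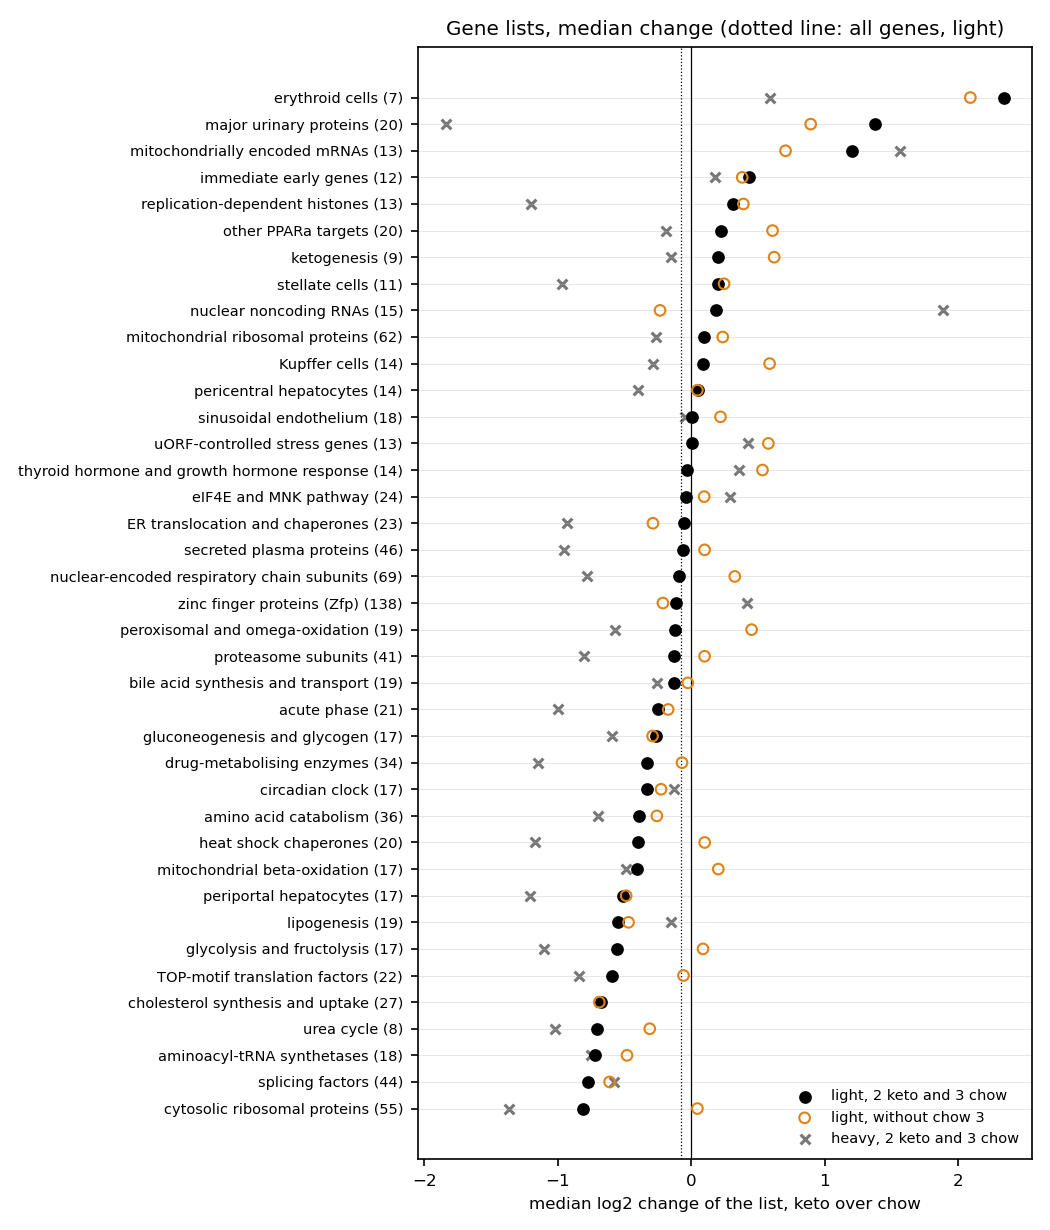
Median log2 change of keto over chow for each gene list with at least 5 genes measured, with the number of genes in brackets. Filled points are the light pool, open points the light pool without chow 3, and crosses the heavy pool of the same animals. Splicing factors, tRNA synthetases and cholesterol genes lie left of the dotted line of all genes in all 3 readings. So do other lists, among them lipogenesis, amino acid catabolism and periportal markers. For cholesterol genes chow 1 was the highest heavy library, and keto 1 lay above chow 2 and chow 3 there. Cytosolic ribosomal proteins move to 0.05 without chow 3, and major urinary proteins lie at 1.37 in the light and -1.84 in the heavy pool.

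Stress and growth genes gave single differences. Hspa1a, an inducible HSP70 chaperone, had 8.33 and 7.50 CPM in keto and 2.88, 2.12 and 1.05 CPM in chow (2.00 ± 0.58), while 16 of 20 heat shock chaperones lay lower, with a median of -0.40 that was 0.10 without chow 3. Jund, an AP-1 subunit, had 35.2 and 21.96 CPM in keto and 8.11, 13.9 and 12.1 CPM in chow (1.33 ± 0.45). Myc had 0 and 0 counts in keto and 10, 11 and 46 counts in chow, at least 6.13-fold lower in keto with the same floor. Of 13 listed stress and polyamine genes 3 lay above all chow libraries and 0 below, where 12.4% and 14.7% of all genes did. Azin1, which restrains the antizyme that Oaz1 encodes, had 7.61 and 13.4 CPM in keto and 2.48, 4.46 and 6.83 CPM in chow. Atf5, a transcription factor, had 36.0 and 54.9 CPM in keto and 23.4, 32.5 and 9.87 CPM in chow. The third was Oaz1, at 29.6 and 29.2 CPM in keto and 24.6, 14.97 and 8.52 CPM in chow. Cebpb, a liver transcription factor of fasting, had 39.8 and 53.0 CPM in keto and 12.03, 42.7 and 40.3 CPM in chow, with overlap. The adjusted p of all these genes was 0.743 or above.

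Markers of other liver cells lay on both sides. The 14 Kupffer cell genes had a median log2 change of 0.09, the 18 sinusoidal endothelial genes 0.01 and the 11 stellate cell genes 0.20, against 0.59, 0.22 and 0.25 without chow 3. Of the Kupffer genes 8 lay higher and 6 lower, with 2 above and 1 below all chow libraries. Slc40a1, the iron exporter ferroportin, had 9.34 and 6.70 CPM in keto and 3.53, 5.31 and 2.45 CPM in chow, without overlap. The 1 below was C1qb, a chain of the complement starter C1q, at 3 and 0 counts in keto and 7, 10 and 49 counts in chow. Of the endothelial genes 9 lay higher and 9 lower, with 4 above and 3 below. Ehd3, an endocytic ATPase, had 25.9 and 22.8 CPM in keto and 14.6, 13.9 and 9.52 CPM in chow, and Bmp2, the ligand that instructs hepatocytes to make hepcidin, had 14 and 16 counts in keto and 3, 10 and 9 in chow, without overlap in CPM. On the other side Stab2, a scavenger receptor of sinusoidal endothelium, had 23.1 and 24.1 CPM in keto and 44.1, 25.1 and 34.0 CPM in chow, and its relative Stab1 had 13.1 and 6.43 CPM in keto and 13.5, 14.02 and 17.1 CPM in chow. Lyve1, a hyaluronan receptor, had 1.44 and 1.07 CPM in keto and 2.09, 2.55 and 1.98 CPM in chow. None of these 3 overlapped. Cholangiocytes had 3 genes measured, lymphocytes and adipocytes 1 each, and neutrophils and exocrine pancreas 0. Summed endothelial levels were 162 and 157 CPM in keto and 197, 111 and 145 CPM in chow, so that the groups overlapped.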

How the data were processed

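RNA of light and heavy polysome pools from mouse liver was sequenced from 10 ng of RNA per library with a stranded kit, per the labels' protocols. The authors deposited raw read counts per Entrez gene ID. The submitters' processing notes name Trimmomatic, HISAT2, StringTie and mm10 without versions. Per the file headers, the keto files name no aligner, and chow 1 and 2 came from Bowtie2 alignments and chow 3 from HISAT2. Which tool counted the reads, with which strand setting and annotation, is not given in the sources used here. ERCC controls were added, per the labels' protocols, but 0 ERCC IDs are in the tables. No column of the tables was left unused (0).

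IDs were matched to symbols with RefSeq's GRCm38.p6 gene table (25275 of 27179). Genes with at least 10 counts in 2 of the 5 light libraries were kept. CPM and log2 changes were computed here from the deposited counts with edgeR 4.0.16 (TMM, quasi-likelihood test, Benjamini-Hochberg adjustment over 8653 genes) in R 4.3.3, on the 5 light libraries. The pool difference was an interaction within animals. DESeq2 1.42.0 and limma 3.58.1 served as alternatives, and the fits were tested on simulated data. In CPM, 1 count was worth 0.144 and 0.268 in keto 1 and keto 2, and 0.0584 to 0.131 in the chow libraries, which limits low genes. Intervals and floors cover counting error only. Nothing says more than that the 5 animals are separate samples, so p-values measure the spread between their libraries. Animal, read handling and library composition are not separated in that spread.

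Named genes were the 12 per direction with no overlap, a mean CPM at or above 3.27 and the smallest p (0 passed), a list of 19 diet and eIF4E pathway genes, up to 3 of the smallest p per gene list, and genes at 0 to 2 counts in 1 diet and at least 20 in the other. Luc7l2, Snrnp70, Srsf1, Srsf2, Srrm2, Hbb-bs, Mup9, Gm13498, Mapk3, Mlxipl, Mup15, Mup2, Mup7, Fdps, ATP6, COX1, COX2, ND3, ATP8, Stab1, Stab2, Lyve1, Alas2 and Cebpb were named after their values were seen, and the major urinary protein list was added then. The members and lists were chosen with earlier results of these data known. Some genes that the rule names are not reported here.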

Additional observations from a re-analysis of the deposited data

Results flagged for a closer look

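Gm13498 and Mup9 were singled out because their diet effects differed between the light and the heavy pool by a test of the difference itself. The light minus heavy difference of log2 changes was 3.89 for Gm13498 (adjusted p = 0.0108) and 3.24 for Mup9 (adjusted p = 0.0493), both from edgeR's quasi-likelihood interaction test with Benjamini-Hochberg adjustment. Gm13498 had 148 and 53 counts in the keto and 28, 102 and 1 counts in the chow light libraries. Mup9 had 143 and 270 counts in the keto and 126, 411 and 73 counts in the chow light libraries. Mup9 shares near-identical sequence with other genes of its cluster, and its part in the difference was not tested.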

How the results depend on the processing

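The light comparison called 0 genes in 14 of 16 alternatives, among them RLE and upper quartile scaling, DESeq2, limma-voom and the omission of each library. No filter on low counts gave 40 genes (16 higher, 24 lower), with 14693 genes tested. A replicate block gave 5 genes (3 higher, 2 lower). Among them were Hba-a2 and Ccdc141 (adjusted p = 0.0112 each, edgeR) and Tlcd4 (adjusted p = 0.0139, edgeR). The eIF4E and MNK pathway list also held a called gene under this block, its lowest adjusted p being 0.0222 (edgeR). No source used here says that the replicate numbers pair animals across the diets. The differences between replicates 1 and 2 of the 2 diets correlated at -0.0209 across 8653 genes. As a single correlation, this cannot decide whether replicates shared a batch. The block changed no other call. It turned 6 log2 changes, to 0.16 for Eif4e, 2.36 for Cyp4a14, 0.53 for Pck1, 0.028 for G6pc, -0.65 for ND3 and -0.23 for ATP8. The count of genes whose diet effect differs between pools was 2, against 15 with DESeq2, 0 over genes with a mean count of 50 or more, 0 without the animal block, and 0 to 196 when 1 animal was left out (196 without chow 3, 3 without keto 1, 2 without keto 2, both below 0, and 0 without chow 1 or chow 2). The cause was not tested.

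Some log2 changes turned sign, and these were not only small ones. Srebf1 at -1.47, Eif4e at -0.91 and Mknk2 at 0.80 in the main fit were among them. With limma-voom the log2 change was 0.13 for Eif4e, 1.31 for Cyp4a14 and 0.13 for Pck1. With the title wording as a block it was -0.33 for Scd1, 0.38 for Cyp4a14, 0.47 for Pck1, 0.16 for G6pc, -0.036 for COX2, -0.47 for ND3 and -0.34 for ATP8. Scd1 had -0.050 with upper quartile scaling and -0.0014 without a filter. When 1 library was left out, the log2 change ran from -0.12 to 1.34 for Mknk2, -1.92 to 0.20 for Srebf1, -0.38 to 1.248 for Scd1, -0.96 to 0.39 for Cyp4a14 and -0.22 to 0.85 for Angptl4. It ran from -0.28 to 0.72 for Ppara, -0.44 to 0.48 for Pck1, -0.81 to 0.43 for G6pc, -0.42 to 0.31 for Alb, -0.061 to 2.14 for Mup9, -1.11 to 1.42 for Mup7, -0.028 to 1.92 for COX2, -1.70 to 1.315 for ND3, -0.33 to 1.39 for ATP8 and -0.12 to 1.12 for Alas2. The other 1695 log2 changes kept direction and side of the threshold, and 19 passed it under an alternative. The counts of list members without overlap when a library was left out were chosen after seeing the data. Precision is limited by the 2 keto libraries and by the 356666 nuclear protein-coding counts of keto 2. The smallest difference that this depth could show is not given here.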

Other observations

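Gene span gave a graded description that no comparison above used. In 4 groups of 2075, 2074, 2074 and 2074 nuclear protein-coding genes, ordered by the length of the gene from start to end in GRCm38.p6, the median log2 change of keto over chow in the light pool was -0.0032, -0.07, -0.12 and -0.18 from the shortest to the longest genes. The share of genes with both keto libraries below all 3 chow libraries was 10.3%, 14.9%, 16.2% and 19.2%. In the heavy pool the medians ran the other way, at -0.25, -0.07, 0.08 and 0.26. Without chow 3 the light medians were 0.20, 0.04, -0.05 and -0.19. Genes are not independent replicates, and no test was made.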
